A study of Mus musculus with 52 samples.

Results

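Synapsins are phosphoproteins on the surface of synaptic vesicles, and vesicular glutamate transporters load glutamate into those vesicles. The 3 synapsin genes (Syn1, Syn2 and Syn3) and the 3 transporter genes (Slc17a6, Slc17a7 and Slc17a8) were taken by name from the deposited tables, and all 6 were found among the 48526 genes listed. They were read in 52 RNA libraries of mouse brain, from miR-146a knockouts (KO) and from wild types (WT). At embryonic day 14 (E14) whole cortex was taken, in 5 KO and 4 WT libraries. At P30, postnatal day 30, each of 3 regions (amygdala, frontal cortex, hippocampus) gave 4 KO and 4 WT libraries. At P60, postnatal day 60, the amygdala gave 4 KO and 3 WT libraries, the frontal cortex as many, and the hippocampus 2 KO and 3 WT. The labels name no Cre, strain, further allele or treatment in either genotype, and do not name the animals. The design text says that mice of a genotype came from different dams, but without animals in the labels the p-values measure the spread between these libraries. The poly-A libraries were sequenced to between 2933026 and 9469235 reads counted on genes. A single read of Mir146 was counted in all, in a WT library; poly-A libraries do not capture the mature microRNA, so this checks nothing of the labels.

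Synapsins tether vesicles to each other and to the actin cytoskeleton in the reserve pool of a nerve terminal, and phosphorylation by protein kinase A and by calcium/calmodulin-dependent kinases releases the vesicles for fusion. Syn1 and Syn2 encode the main synapsins of mature terminals, while Syn3 is known for expression in immature neurons. Slc17a7 encodes VGLUT1, the transporter of most cortical and hippocampal excitatory terminals. Slc17a6 encodes VGLUT2, the transporter of thalamic, hypothalamic and brainstem neurons, which many immature cortical neurons also express. Slc17a8 encodes VGLUT3, found in a small set of neurons that often release a further transmitter, among them basket cells with cholecystokinin and serotonergic neurons.

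The genes lie on 4 chromosomes of the mouse genome (GRCm38, GENCODE M21 annotation). The submitters' processing notes name build mm9, and these positions are not from the deposited tables. Syn1 (ENSMUSG00000037217) runs from 20860511 to 20921004 on the minus strand of chromosome X, Syn2 (ENSMUSG00000009394) from 115134902 to 115282006 on the plus strand of chromosome 6, and Syn3 (ENSMUSG00000059602) from 86055125 to 86498896 on the minus strand of chromosome 10. Slc17a6 (ENSMUSG00000030500) runs from 51622006 to 51671119 and Slc17a7 (ENSMUSG00000070570) from 45163949 to 45176142, both on the plus strand of chromosome 7, and Slc17a8 (ENSMUSG00000019935) from 89574020 to 89621253 on the minus strand of chromosome 10. Syn3 spans 443.8 kilobases and Slc17a7 12.2, the longest and the shortest of the 6, and each synapsin gene holds a gene for a tissue inhibitor of metalloproteinases in its introns on the opposite strand: Timp1 in Syn1, Timp4 in Syn2 and Timp3 in Syn3.

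Because the deleted gene encodes miR-146a, annotated 3′ untranslated regions were searched for matches to its seed. The mature microRNA (RefSeq, GRCm38.p6, chromosome 11, 43374435 to 43374456, minus strand) is shown with its seed, bases 2 to 8, in capitals, followed by the matching sites of the synapsins with 11 bases on either side (GENCODE M21 transcripts, GRCm38), where capitals mark the bases matching AGTTCTC or GTTCTCA on the transcript strand.
mmu-miR-146a-5p: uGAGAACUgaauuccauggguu
Syn1, chromosome X, 20861301 to 20861308, minus strand: gtcctaaatccAGTTCTCAcatttgggaat
Syn2, chromosome 6, 115275417 to 115275424, plus strand: ctgaccgccttAGTTCTCAgcctttgacct
Syn3, chromosome 10, 86292334 to 86292341, minus strand: tattttcccagAGTTCTCAgagttacttgt
Syn3, chromosome 10, 86293887 to 86293894, minus strand: cattgaacttgAGTTCTCAgagagattccc
Syn3, chromosome 10, 86291763 to 86291769, minus strand: cgttgtggatcGTTCTCActctgtagtga
All 3 synapsins held a match and none of the 3 transporters did. The Syn1 and Syn2 matches stood alone in their 3′ untranslated regions. That of Syn2 lay in 2 of its 3 transcripts with an annotated 3′ untranslated region, and the 3 of Syn3 lay in 1 of its 2 such transcripts. Such a match was common: 4466 of 21124 genes (21.1%) had one. Among genes with 3′ untranslated regions of like length the share was 15.2% for Syn1, 32.5% for Syn2, 41.7% for Syn3, 25.8% for Slc17a6, 16.1% for Slc17a7 and 33.5% for Slc17a8. A match is a run of letters and no measure of binding.

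Promoters are shown for Syn1 and Slc17a7, the 2 genes with the highest level per kilobase after birth, of the 5 members matched in the RefSeq promoter table (GRCm38.p6; Syn3 was not matched). In Syn1 the printed bases lie on chromosome X from 20921005 to 20921168, minus strand, and capitals mark TTCAGCACC, the first part of the element bound by the repressor REST, and TGACGTCA, the cAMP response element. In Slc17a7 they lie on chromosome 7 from 45163671 to 45163920, plus strand, and capitals mark GGGCGG, the GC box, on either strand.
Syn1 promoter: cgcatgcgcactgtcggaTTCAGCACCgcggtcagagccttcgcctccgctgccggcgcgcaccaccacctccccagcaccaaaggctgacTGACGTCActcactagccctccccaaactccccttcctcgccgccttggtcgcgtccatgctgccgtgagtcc
Slc17a7 promoter: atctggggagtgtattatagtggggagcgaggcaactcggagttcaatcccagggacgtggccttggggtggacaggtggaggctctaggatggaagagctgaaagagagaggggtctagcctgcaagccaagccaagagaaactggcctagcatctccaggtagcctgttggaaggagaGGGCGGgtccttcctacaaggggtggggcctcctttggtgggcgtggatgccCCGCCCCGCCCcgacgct
The printed Syn1 bases are the 164 of the 250 that lie farthest from the RefSeq start, since those nearest to it lie within an annotated exon and are not shown. The 3 motifs were searched on both strands in the 250 bases before each start, and positions count from that start to the first base of the match. TTCAGCACC lay 232 bases upstream of the Syn1 start and was held by 99 of 32851 promoters (0.301%), and TGACGTCA lay 159 bases upstream and was held by 508 (1.55%). GGGCGG was found 70, 18 and 13 bases upstream of the Slc17a7 start, the last 2 overlapping, and was held by 32.7% of promoters. It also occurred 37 and 13 bases upstream of a Syn2 start and 36 bases upstream of a Slc17a6 start, and none of the 3 motifs was found before the Slc17a8 starts. No motif match is a measure of a factor at the gene.

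Some libraries stood apart from the rest of their group in the summed values of marker lists, and what set them apart was not tested. Marker genes were read beside the region labels (limma, adjusted p under 0.05). At P30 all 8 genes of the hippocampus list were higher in hippocampus than in frontal cortex, and 7 of 8 genes of the frontal cortex list were lower. Of all genes, 43.3% were called in that contrast, in either direction. In amygdala, 5 of 8 genes of the amygdala list were higher than in frontal cortex, where 37.3% of all genes were called in either direction. The summed amygdala list ran from 660.5 to 894.8 in P30 amygdala and from 305.0 to 482.7 in P30 frontal cortex. It was not particular to amygdala, with 1060 to 1323 in E14 cortex. In the P60 hippocampus, number 1 of KO and number 1 of WT stood apart, with summed hippocampus list values of 1964 and 2073 against 4226 to 4861 in the other 3 libraries. In the WT P30 hippocampus, number 3 had 5520 for the choroid plexus list, against 41.3 to 1185 in the other P30 hippocampus libraries. In the WT P30 amygdala, number 3 had 6749 for the oligodendrocytes list, against 1400 to 2584 in the other P30 amygdala libraries. In the E14 cortex, KO numbers 4 and 5 had 1907 and 2016 for the excitatory forebrain neurons list, against 920.3 to 1288 in the other 7 libraries. They had 2016 and 2023 for the cortical progenitors list, against 2557 to 3501 in the others. Their chi-square per gene against KO numbers 1 to 3 was 14.69 to 21.28, and 3.78 between the pair. Values here and below are CPM, reads on a gene scaled by the authors to a near common library total, as deposited. Many differences of the members are given with and without these libraries. The counts of gene lists and the shares within each family are given with all libraries only.

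Per kilobase of exon, Syn1 had the highest mean level of the 6 genes at every age and in every region, and Slc17a8 the lowest. In the P60 hippocampus the lowest means were close, 1.344 ± 0.688 for Slc17a6 and 1.277 ± 0.239 for Slc17a8 (SD, n = 5). Slc17a6 was below Slc17a8 there in KO number 2 (0.456 and 1.076) and in WT number 1 (0.789 and 1.275). In the P30 frontal cortex the mean level was 293.3 CPM per kilobase for Syn1, 117.3 for Slc17a7, 39.9 for Syn2, 5.06 for Slc17a6, 3.41 for Syn3 and 0.812 for Slc17a8 (8 libraries, exon union). In the E14 cortex the order was Syn1 with 38.7, Slc17a6 with 20.46, Syn3 with 6.02, Syn2 with 4.75, Slc17a7 with 3.49 and Slc17a8 with 0.298 (9 libraries). Slc17a7 thus stood next to Syn1 at P30, and Slc17a6 stood there at E14. The order of Slc17a6 and Syn3 in the P30 frontal cortex depended on the length used: over the longest transcript the WT means were 7.004 for Slc17a6 and 8.607 for Syn3. Slc17a8 rested on 1 to 52 reads per library, so small differences of this gene were not detectable at this depth.

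**Figure D1:**
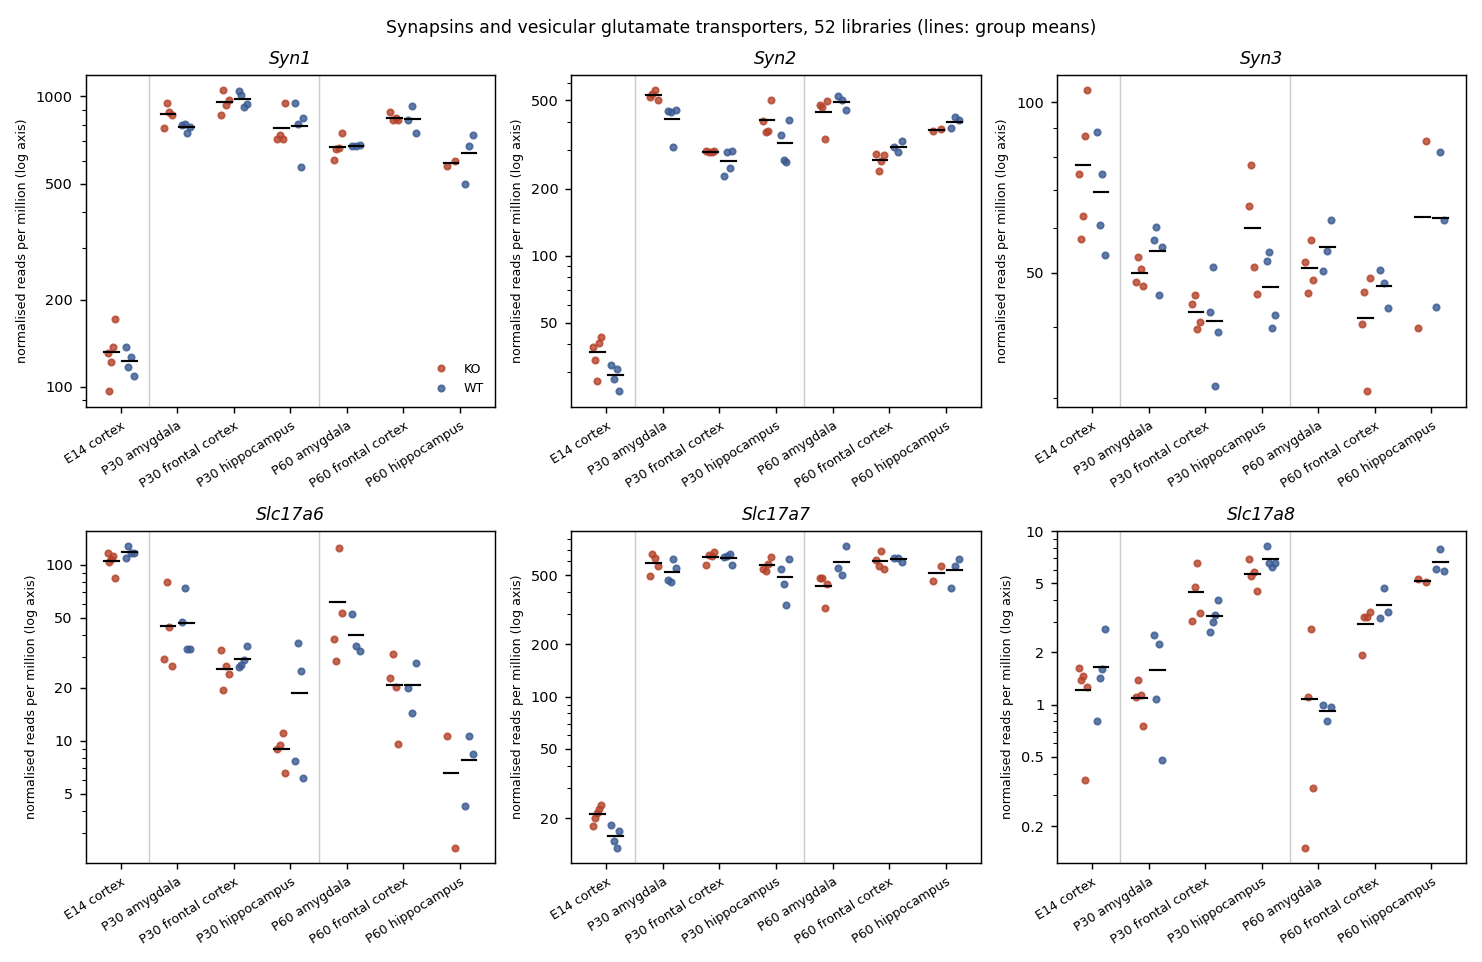
Normalised CPM (log axis) of the 6 genes in each of the 52 libraries, KO in red left of WT in blue, with group means as lines and ages separated by grey lines. Slc17a7 sits between 13.54 and 23.73 at E14 and between 322.29 and 734.66 after birth, while Slc17a6 is highest at E14, between 84.24 and 127.76, except for 1 KO P60 amygdala library at 124.76.

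The first comparison asks whether loss of miR-146a was accompanied by a change of these transcripts. None of the 6 genes passed the test in any of the 7 settings (42 tests; limma on log2(value + 1), all genes of a table, adjusted p under 0.05), and the lowest adjusted p was 0.365. The share of all genes called was as small: 0.049% in E14 cortex, 0.0263% in P30 amygdala, 0.0158% in P30 frontal cortex, 0.0316% in P30 hippocampus, 0.0208% in P60 amygdala, 0.0312% in P60 frontal cortex and 0.0208% in P60 hippocampus. The log2 fold changes of the members, KO minus WT, lay between -0.67 and 0.41. In 6 of the 42 tests the unadjusted p was under 0.05, in a background of 2.89% of all genes at E14, of 9.82%, 1.96% and 9.55% in P30 amygdala, frontal cortex and hippocampus, and of 4.07%, 2.24% and 2.04% in the same regions at P60. In 5 the KO and WT libraries did not overlap, nor did those of 1.16% of genes at E14, of 6.65%, 2.36% and 3.15% at P30 and of 5.04%, 5.26% and 11.7% at P60, in that order.

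Syn1, the most abundant synapsin, gave values close to 0 in most settings. In the P30 frontal cortex it had 864, 1055, 937 and 971 in KO libraries, against 1042, 1011, 918 and 945 in WT libraries. The ranges overlapped and the log2 fold change was -0.04 ± 0.11 (SE; limma adjusted p = 1.0). The 95% interval ran from -0.27 to 0.20. In the other 6 settings the log2 fold change of Syn1 lay between -0.09 and 0.15. Syn1 is X-linked and the sexes were uneven at P30, with 3 female and 1 male KO libraries and 1 female and 3 male WT libraries in each region, read from Xist and Y-linked genes; with sex as a covariate Syn1 was again called in no setting.

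Syn2, the second synapsin of mature terminals, had a mean above WT in all 3 regions at P30 and below WT in all 3 regions at P60, without passing the adjusted test in any; the P60 amygdala value was near 0 without KO number 3. In the P30 amygdala it had 518, 533, 559 and 503 in KO libraries, against 449, 441, 309 and 453 in WT libraries. Every KO library lay above every WT library there, and WT number 3, the library with the high oligodendrocyte sum, lay lowest. The log2 fold change was 0.37 ± 0.13 (SE; 95% interval 0.09 to 0.65; limma adjusted p = 0.365). Over the alternatives, each library left out in turn included, it ran from 0.24 to 0.42, and the limma adjusted p from 0.297 to 0.661; the lowest value was that without WT number 3.

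In the P30 hippocampus Syn2 had 406, 361, 364 and 503 in KO libraries, against 351, 269, 263 and 408 in WT libraries. The groups overlapped, with a log2 fold change of 0.35 ± 0.13 (SE; 95% interval 0.07 to 0.63; limma adjusted p = 0.423). The oligodendrocytes list ran in the opposite direction, with overlap. All 8 of its genes had reads, and the sum was 4865 to 8390 in KO and 5401 to 18620 in WT libraries. Its part in the result was not tested. Without WT number 3, the library with the highest oligodendrocyte and choroid plexus sums, the log2 fold change of Syn2 there was 0.26 (limma adjusted p = 0.709). In the P30 frontal cortex the Syn2 difference was 0.15 ± 0.13 (limma adjusted p = 1.0). At P60 the Syn2 differences were -0.17 ± 0.11 in amygdala, -0.20 ± 0.11 in frontal cortex and -0.12 ± 0.13 in hippocampus (limma adjusted p = 0.999, 1.0 and 1.0). That of the amygdala was -0.04 without KO number 3. In the P60 frontal cortex Syn2 had 289, 242, 268 and 286 in KO libraries, against 310, 293 and 327 in WT libraries. Those groups did not overlap, nor did those of the P60 hippocampus, where KO had 365 and 373 and WT had 377, 421 and 407. The difference between the ages was not tested, since the 2 tables were normalised separately. At E14 Syn2 averaged 36.8 ± 6.24 in KO and 29.0 ± 3.45 in WT libraries (SD, n = 5 and 4), a log2 fold change of 0.32 ± 0.13 with overlapping groups (SE; limma adjusted p = 1.0). The highest KO values there were those of numbers 4 and 5, and without both the log2 fold change was 0.19 (limma adjusted p = 0.796).

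Syn3, the synapsin of immature neurons, passed the test in no setting. In the P30 hippocampus it had 65.6, 77.6, 51.1 and 45.8 in KO libraries, against 52.5, 54.3, 40.0 and 42.1 in WT libraries. The groups overlapped, with a log2 fold change of 0.32 ± 0.14 (SE; 95% interval 0.03 to 0.61; limma adjusted p = 0.485), and 0.25 without WT number 3 (adjusted p = 0.740). In the P60 hippocampus it had 39.9 and 85.4 in KO libraries, against 43.4, 81.6 and 61.9 in WT libraries. The low value of each genotype was that of number 1, the pair of libraries with low hippocampal marker sums, and without both the log2 fold change was 0.26 in place of -0.05. In the other 5 settings it lay between -0.20 and 0.15.

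Slc17a7, the main transporter of adult forebrain, had its 2 clearest differences in opposite directions. At E14 it had 18.1, 20.0, 21.5, 22.5 and 23.7 in KO libraries, against 18.2, 14.7, 13.5 and 17.0 in WT libraries. The groups overlapped only by the lowest KO and the highest WT library, with a log2 fold change of 0.40 ± 0.11 (SE; 95% interval 0.15 to 0.64; limma adjusted p = 1.0). The 2 highest values were those of KO numbers 4 and 5, the libraries with the high excitatory forebrain and low progenitor sums, whose part was not tested beyond leaving them out: without both the log2 fold change was 0.31 (limma adjusted p = 0.780). In the P60 amygdala it had 480, 481, 322 and 441 in KO libraries, against 549, 501 and 735 in WT libraries. The groups did not overlap, with a log2 fold change of -0.46 ± 0.16 (SE; 95% interval -0.80 to -0.13; limma adjusted p = 0.999). In that setting the lowest Slc17a7 library, KO number 3, had the highest sum of the inhibitory neurons list, 1602, and the highest Slc17a7 library, WT number 3, the lowest, 905.9; all 10 genes of the list had reads in both groups, and its part in the result was not tested. Without KO number 3 the log2 fold change was -0.33, and without WT number 3 it was -0.30. In the other 5 settings it lay between -0.05 and 0.27, the highest in P30 hippocampus, where it was 0.11 without WT number 3.

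Slc17a6, the transporter of thalamic and hypothalamic neurons, had the largest standard errors of the 6 genes at P30 and at P60. The fit gives each gene a common spread over all groups of a table, so this ranking is not a result of any setting by itself. In the P30 hippocampus it had 8.90, 9.49, 11.0 and 6.52 in KO libraries, against 7.68, 35.98, 25.0 and 6.09 in WT libraries. WT numbers 2 and 3 were high and the other 6 libraries lay between 6.09 and 10.97, and the log2 fold change was -0.67 ± 0.44 (SE; limma adjusted p = 0.669). The same 2 WT libraries had the highest sums of the thalamus list, 449.6 and 423.2, against 240.1 to 313.6 in the other 6, with reads for all 10 genes in both groups. Without WT number 2 the log2 fold change of Slc17a6 was -0.25, without WT number 3 it was -0.42, and without WT number 4, the lowest library, it was -1.05. In the P60 amygdala Slc17a6 had 37.9, 28.2, 124.8 and 53.4 in KO libraries, against 52.3, 34.4 and 32.4 in WT libraries, and the log2 fold change was 0.41 ± 0.53 (SE; limma adjusted p = 0.999), or -0.01 without KO number 3. KO number 3, the high library, had the highest sums there of the thalamus list, 285.3, and of the hypothalamus list, 61.81; the groups spanned 207.9 to 285.3 in KO and 211.3 to 261.4 in WT for thalamus, and 36.16 to 61.81 in KO and 3.55 to 39.59 in WT for hypothalamus. At E14 the Slc17a6 log2 fold change was -0.17 ± 0.09 (SE; limma adjusted p = 1.0), and the thalamus list summed to 134.3 to 459.7 in KO and 449.1 to 636.2 in WT libraries. In the P30 amygdala the highest thalamus sum, 384.5, was that of WT number 3. Its Slc17a6 was 33.22, below the median of 38.64 of the 8 libraries there. The part of these neighbouring regions in the values of Slc17a6 was not tested. In bulk tissue, fewer cells of a type and less RNA per cell cannot be told apart.

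Slc17a8, the transporter of a small set of neurons, gave log2 fold changes between -0.29 and 0.33. In the P60 hippocampus it had 5.28 and 5.08 in KO libraries, against 6.02, 7.92 and 5.85 in WT libraries, without overlap. The log2 fold change was -0.29 ± 0.35 (SE; limma adjusted p = 1.0).

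No member passed the test of whether the KO to WT difference depends on the region. The interaction of genotype and region called none of the 6 genes at P30 or at P60, with limma adjusted p of at least 0.967 and of 1.0. It called 0.0% of all genes at both ages; 871 genes (4.59%) at P30 and 415 (2.16%) at P60 had an unadjusted p under 0.05. The proteins that work beside these genes were read in the same way: of the lists of synaptic vesicle proteins, release machinery, vesicular proton pump, other vesicular transporters, glutamate supply and uptake, and synapsin kinases and phosphatases, 0 genes were called between KO and WT in any of the 7 settings. Their median log2 fold changes lay between -0.10 and 0.22, the highest for the proton pump in the P30 amygdala, where all 10 genes were above 0, beside a median of 0.00 over all genes tested there.

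**Figure D2:**
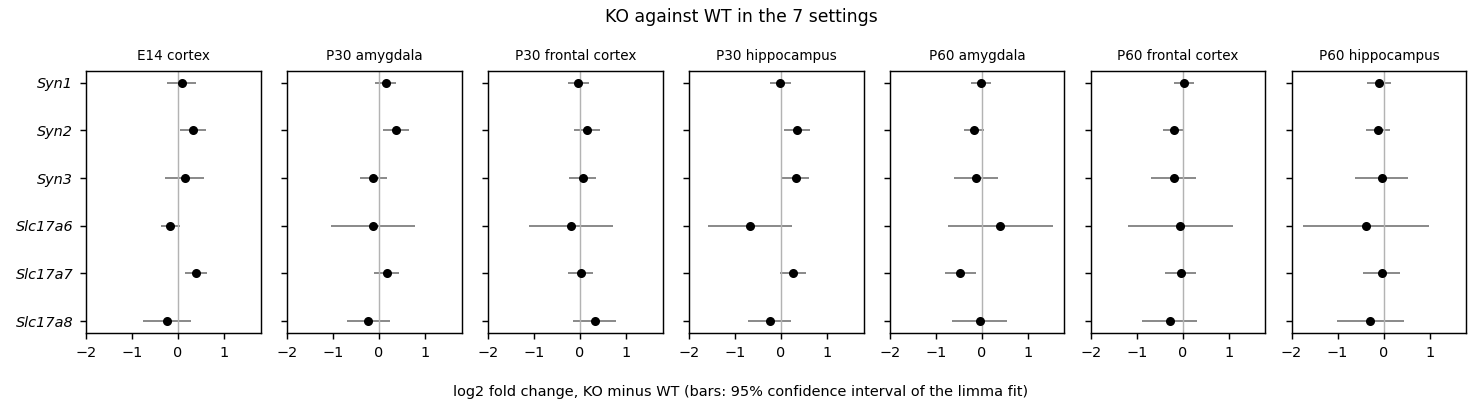
Log2 fold change, KO minus WT, of the 6 genes (rows) in the 7 settings (panels); points are limma estimates and bars their 95% confidence intervals. The intervals of Syn2 leave out 0 at E14 and in the P30 amygdala and hippocampus, those of Syn3 in the P30 hippocampus, and those of Slc17a7 at E14 and in the P60 amygdala, but no adjusted p is under 0.05.

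The second comparison sets the 3 regions against each other within an age, with KO and WT averaged. All 6 genes differed between hippocampus and frontal cortex at P30, and Syn2 and Slc17a8 differed between every pair of regions at both ages. Syn2 was highest in amygdala and lowest in frontal cortex. Slc17a8 was highest in hippocampus and lowest in amygdala. Of all genes tested, 43.3% were called for hippocampus against frontal cortex at P30, 37.3% for amygdala against frontal cortex and 44.1% for amygdala against hippocampus; at P60 the shares were 32.8%, 31.4% and 29.0%. The members called numbered 6, 4 and 3 at P30 and 4, 4 and 3 at P60. Against such backgrounds a count of members called is not by itself a result about them, and the sizes and directions below carry the description. In WT libraries alone the members called were 3, 4 and 3 at P30, where 30.1%, 22.9% and 30.2% of all genes were called, and 2, 2 and 2 at P60, where 17.9%, 9.6% and 16.7% were. In KO libraries alone they were 4, 2 and 3 at P30 (29.5%, 22.1% and 30.5% of all genes) and 2, 4 and 2 at P60 (17.6%, 23.6% and 13.6%). For P30 hippocampus minus frontal cortex, Syn2, Syn3 and Slc17a6 were not called in WT alone, nor Slc17a7 and Slc17a8 in KO alone; whether the genotypes differ in this was tested by the interaction above, which called none. Whether the 3 regions came from the same animals is not stated, and the main fit counts their libraries as independent. Within a genotype and age, libraries with the same number were of the same sex in every region. With genotype and number as a random block every count of members called was the same.

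Syn2 in the P30 amygdala ran from 309 over a median of 478 to 559, against 229, 292 and 297 in the frontal cortex (lowest, median and highest of 8 libraries each). The ranges did not overlap, and the log2 fold change was 0.73 ± 0.10 (SE; limma adjusted p = 2.01e-06). At P60 the difference was 0.68 on the log2 scale, with means of 464.7 in amygdala and 287.7 in frontal cortex and again no overlap (7 libraries each; limma adjusted p = 1.66e-06). In hippocampus Syn2 averaged 365.8 at P30 and 388.6 at P60 and was above frontal cortex by 0.36 and 0.41 on the log2 scale (limma adjusted p = 0.00341 and 0.000776). It was below amygdala, with amygdala minus hippocampus at 0.37 at P30 and 0.27 at P60 (limma adjusted p = 0.00255 and 0.0185). The P60 difference of amygdala and hippocampus was not called with TMM scaling (limma adjusted p = 0.0896), without number 1 or number 2 of the KO P60 hippocampus (adjusted p = 0.0515 and 0.0549), or without both libraries numbered 1 (adjusted p = 0.0784).

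Syn1 was highest in the frontal cortex. At P30 it ran from 571 over a median of 771 to 951 in hippocampus, against 864, 958 and 1055 in frontal cortex. The ranges overlapped, with a log2 fold change of -0.32 ± 0.08 (SE; limma adjusted p = 0.00195). Leaving out 1 library in turn, it ran from -0.367 to -0.243 with the same call each time. At P60 the ranges of hippocampus, 498 to 735, and frontal cortex, 746 to 930, did not overlap, with -0.46 ± 0.08 (limma adjusted p = 0.000207). Amygdala minus frontal cortex was -0.23 at P30 and -0.32 at P60 (limma adjusted p = 0.0246 and 0.00242), and amygdala and hippocampus did not differ by the test, at 0.09 and 0.14. The P30 call of amygdala against frontal cortex was lost without KO amygdala number 1 (limma adjusted p = 0.0575), KO frontal cortex number 2 (0.0570) or WT frontal cortex number 1 (0.0501).

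Syn3, whose level was far lower, was above frontal cortex at P30 in both other regions. It averaged 53.6 in hippocampus and 52.2 in amygdala, against 41.8 in frontal cortex, with log2 fold changes of 0.33 and 0.32 (limma adjusted p = 0.00933 and 0.0143) and overlapping ranges; that of amygdala was not called with TMM scaling (0.0529). At P60 no region pair was called over all libraries. Without KO hippocampus number 1, WT hippocampus number 1 or both, hippocampus minus frontal cortex was 0.70, 0.54 and 0.81 (limma adjusted p = 0.00268, 0.0202 and 6.56e-05), against 0.43 with them (0.0791). Without KO hippocampus number 2 it was 0.16 (0.531). Without KO hippocampus number 1 or both, amygdala minus hippocampus was -0.43 and -0.55 (0.0499 and 0.00271), against -0.16 with them.

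Slc17a6 was highest in amygdala and lowest in hippocampus. At P60 it ran from 28.2 over a median of 37.9 to 124.8 in amygdala, against 2.46, 8.43 and 10.6 in hippocampus. The ranges did not overlap, and the log2 fold change was 2.66 ± 0.42 (SE; limma adjusted p = 0.000271); at P30 it was 1.81 ± 0.31 with overlapping ranges (8.19e-05). Hippocampus minus frontal cortex was -1.18 at P30 and -1.51 at P60 (limma adjusted p = 0.00433 and 0.0126), and the P60 call was lost without KO hippocampus number 2, the lowest library (-1.07, 0.105), and with voom (0.0525). Amygdala minus frontal cortex was 0.64 at P30 and did not pass (limma adjusted p = 0.117). At P60 it was 1.16 and passed (0.0314), but not without WT amygdala number 1 (0.0749) or 2 (0.0513), KO frontal cortex number 4 (0.0557), WT frontal cortex number 1 (0.0579) or 2 (0.0793), or with no filter on low genes (0.0553). The hypothalamus list, with reads for 8 to 10 of its 10 genes in each group, had higher sums in most amygdala libraries, with overlap. It summed to 6.35 to 67.66 in P30 and 3.55 to 61.81 in P60 amygdala libraries, against 1.59 to 16.1 in the libraries of the other regions. The P60 amygdala library at 3.55 was WT, and the lowest Slc17a6 of the WT libraries there was 32.37. That value lay above the highest of the P60 frontal cortex, 30.96. The thalamus list was not higher in amygdala: its median sum at P30 was 243.9 there, 300.3 in frontal cortex and 291.3 in hippocampus. At P60 the medians were 222.4, 253.2 and 231.1 in the same order. The part of either list in the level of Slc17a6 was not tested.

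**Figure D3:**
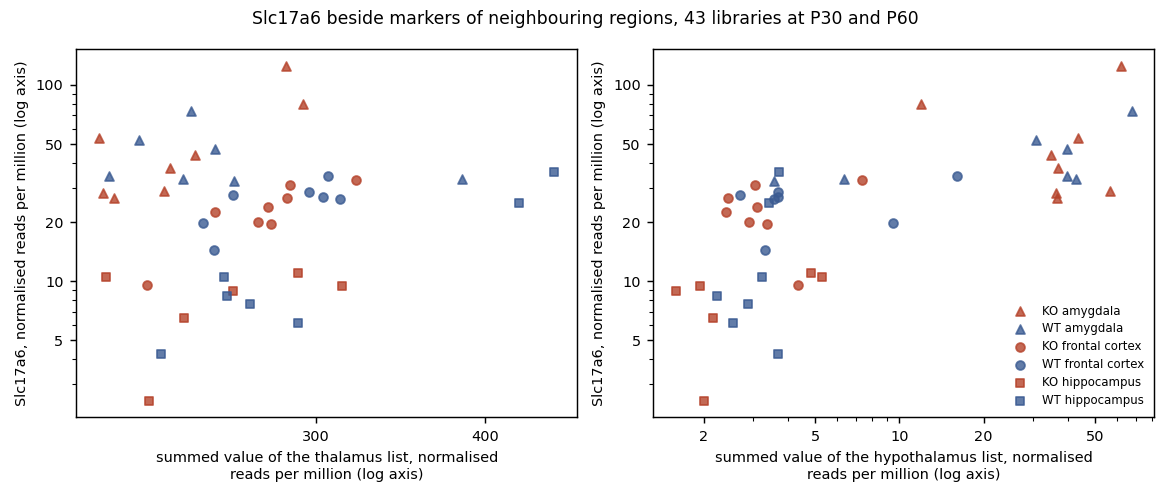
Slc17a6 (vertical, CPM, log axis) against the summed thalamus list (left) and hypothalamus list (right; log axes) in the 43 libraries at P30 and P60, by genotype (colour) and region (shape). The 2 WT hippocampus libraries with Slc17a6 at 35.98 and 25.01 have thalamus sums of 449.6 and 423.2, and the amygdala library at 124.76 has a hypothalamus sum of 61.81. The WT P30 amygdala library with a thalamus sum of 384.5 has Slc17a6 at 33.22.

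Slc17a7 differed little between regions. At P30 it ran from 338 over a median of 544 to 631 in hippocampus, against 570, 646 and 675 in frontal cortex. The ranges overlapped and the log2 fold change was -0.28 ± 0.09 (SE; limma adjusted p = 0.0183). At P60 the same difference was -0.23 and did not pass (0.180). Amygdala minus frontal cortex was -0.20 at P30 and -0.28 at P60 and passed at neither age (limma adjusted p = 0.101 and 0.0649). It passed at P30 without WT amygdala number 3 (-0.24, 0.0454), without WT number 3 of all regions (-0.23, 0.0173) and with TMM scaling (-0.26, 0.0391), and at P60 without WT amygdala number 3 (-0.36, 0.0168) and with TMM scaling (-0.36, 0.0227).

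Slc17a8 was lowest in amygdala at both ages. At P30 it ran from 0.48 over a median of 1.12 to 2.53 in amygdala, against 4.49, 6.36 and 8.21 in hippocampus and 2.63, 3.32 and 6.54 in frontal cortex. Amygdala overlapped with neither region, and the log2 fold changes were -1.68 ± 0.16 against hippocampus and -1.06 against frontal cortex (limma adjusted p = 3.5e-09 and 9.16e-06). Hippocampus minus frontal cortex was 0.62 ± 0.16 with overlapping ranges (0.00266). At P60 the 3 differences were -1.85, -1.18 and 0.67 (limma adjusted p = 6.28e-06, 0.000219 and 0.0268). The last one was not called with a pseudocount of 0.1 (0.154), without both hippocampus libraries numbered 1 (0.0674), or without KO frontal cortex number 1 (0.0524), WT frontal cortex number 1 (0.0616) or 3 (0.0508), KO hippocampus number 1 (0.0670) or 2 (0.0738), or WT hippocampus number 2 (0.0651).

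**Figure D4:**
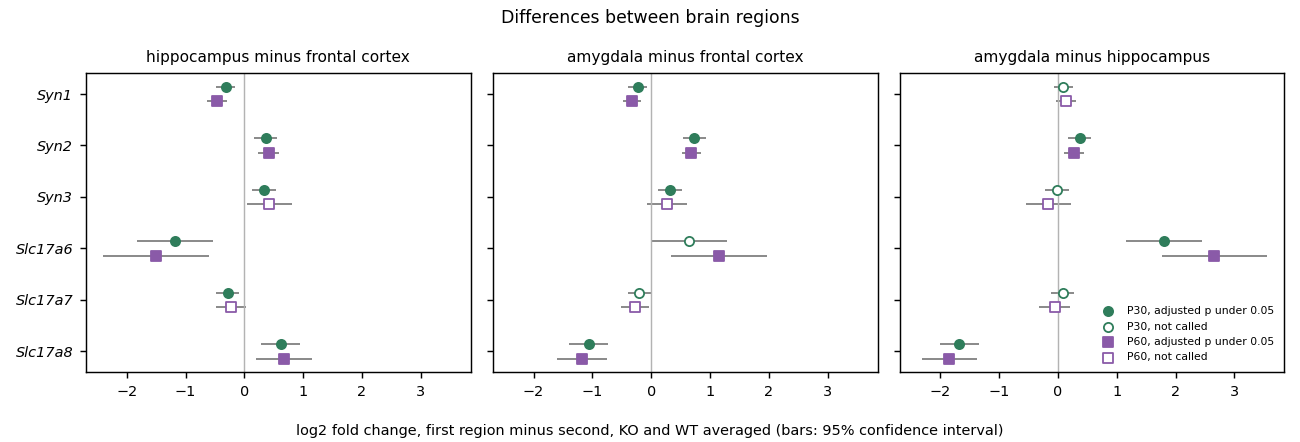
Log2 fold changes between regions at P30 (circles) and P60 (squares), first region minus second, with 95% confidence intervals; filled symbols have an adjusted p under 0.05. Slc17a6 spans the widest range, up to 2.66 for amygdala minus hippocampus at P60, and Syn2 is above 0 in all 3 panels.

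Genes of the same vesicles did not follow a single pattern with the 6. Between hippocampus and frontal cortex at P30, 13 of 20 synaptic vesicle proteins fell and 2 rose (median -0.28 on the log2 scale), and 9 of 15 release genes fell and 2 rose (median -0.38), beside 4499 lower and 3718 higher of all genes (43.3% called; median -0.01). Syt2, a fast calcium sensor, had means of 14.2 in hippocampus and 41.5 in frontal cortex (-1.52), and Cplx1, which clamps the fusion complex, 205.3 and 326.3 (-0.68). Synpr, a vesicle membrane protein, rose to 86.3 in hippocampus, against 51.4 in frontal cortex (0.72). Stx1a, a syntaxin of the fusion complex, fell to 31.8 in hippocampus, against 137.5 in frontal cortex (-2.09), while Doc2b, a calcium sensor of spontaneous release, rose to 89.0, against 19.7 (2.13). Of 10 proton pump genes 5 fell and 1 rose, and 3 of 6 tested other vesicular transporters fell and 0 rose, among them the vesicular zinc transporter Slc30a3 (-0.88) and the vesicular GABA transporter Slc32a1 (-0.65). Sums of neuron markers differed between the same libraries: the neurons list, all 9 genes with reads, summed to 2746 to 3861 in hippocampus and 3917 to 4115 in frontal cortex, and the inhibitory neurons list, all 10 with reads, to 660.0 to 875.0 and 932.5 to 1117. Neither pair of ranges overlapped, and the part of cell make-up in the counts of these lists, or in the lower Syn1 and Slc17a7 of hippocampus, was not tested.

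Between amygdala and frontal cortex at P30, 3 of 20 vesicle proteins rose and 6 fell (median -0.05), where 37.3% of all genes were called (median 0.06); such a share is near the background and nothing particular to the list is read from it. Rab3c, a small GTPase of vesicles, averaged 669.9 in amygdala and 414.8 in frontal cortex (0.69), close to the difference of Syn2, and Syt2 averaged 8.53 and 41.5 (-2.25). Of 11 genes of glutamate supply and uptake 4 rose and 4 fell: the neuronal glutamate transporter Slc1a6 by 0.70 and the mitochondrial glutamate carrier Slc25a22 by 0.40, while the glutaminase Gls2 fell by 1.17 on the log2 scale. Of 17 synapsin kinases and phosphatases 4 rose and 2 fell, and Camk2d, a subunit of calcium/calmodulin-dependent kinase II, averaged 346.9 in amygdala and 105.1 in frontal cortex (1.72). Between amygdala and hippocampus, where 44.1% of all genes were called (median 0.08), 9 vesicle proteins rose and 4 fell (median 0.17), Rab3b by 1.21 and the syntaxin gene Stx1a by 1.48. All 8 oligodendrocyte genes were lower in amygdala than in either other region, with medians of -1.45 against frontal cortex and -1.93 against hippocampus, and the neurons list summed to 4245 to 4685 in amygdala libraries, above the 3917 to 4115 of frontal cortex. The part of cell make-up in these differences was not tested. At P60, 2 of 20 vesicle proteins were higher and 7 lower in hippocampus than in frontal cortex, and 9 were higher and 3 lower in amygdala than in hippocampus, beside 32.8% and 29.0% of all genes called.

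The third comparison sets ages side by side. Between the E14 cortex and the P30 frontal cortex the 2 main transporters exchanged places: Slc17a7 was by far higher at P30 and Slc17a6 lower, and Syn1 and Syn2 were higher while Syn3 was lower. These levels use recovered reads scaled together by trimmed means, in CPM. They carry no test, because each age is its own table and an E14 whole cortex is not a P30 frontal cortex, so table, dissection and age cannot be told apart.

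Slc17a7 averaged 670.3 ± 52.5 in P30 and 18.2 ± 1.87 in E14 KO libraries (SD, n = 4 and 5), a 36.9-fold difference, and 656.5 ± 38.8 in P30 and 13.8 ± 1.66 in E14 WT libraries (SD, n = 4 each), a 47.6-fold difference. The difference exceeded that of 99.5% of genes in KO and of 99.6% in WT. Syn1 was 8.93-fold higher in KO and 9.58-fold higher in WT at P30, with 1007 CPM in KO and 1023 in WT at P30, against 112.8 and 106.8 at E14. Syn2 was 9.82-fold higher in KO and 11.0-fold higher in WT. Means at least 2-fold higher at P30 were found for 26.2% of genes in KO and 26.1% in WT, and at least 2-fold lower for 20.8% and 21.9%.

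Slc17a6 averaged 27.0 at P30 and 90.0 at E14 in KO libraries, 3.34-fold lower at P30, and 30.3 and 102.2 in WT libraries, 3.38-fold lower, with no overlap in either genotype. Syn3 was 1.48-fold lower at P30 in KO, without overlap, and 1.40-fold lower in WT, with overlap. Slc17a8 was higher at P30, with 4.67 against 1.05 in KO and 3.38 against 1.43 in WT, from few reads. Per kilobase of exon union, Slc17a6 made up 3.89% ± 1.09 of the 3 transporters in KO and 4.40% ± 0.797 in WT P30 frontal cortex (SD, n = 4 each). In E14 cortex it made up 82.1% ± 3.09 in KO and 86.8% ± 1.96 in WT libraries (SD, n = 5 and 4). Slc17a7 made up 95.4% in KO and 95.03% in WT P30 frontal cortex, and 16.8% in KO and 11.8% in WT E14 cortex. Its share reached its lowest after birth in the KO P60 amygdala, at 86.9% ± 10.4 (SD, n = 4), where Slc17a6 had 12.8%, carried by the library at 124.8.

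Among the synapsins Syn1 held the main share at every age, 86.4% in KO and 87.8% in WT P30 frontal cortex, and 77.5% in KO and 79.3% in WT E14 cortex. Syn3 made up 1.04% in KO and 0.985% in WT P30 frontal cortex, and 12.2% in KO and 11.9% in WT E14 cortex. Syn2 made up 12.5% in KO and 11.2% in WT P30 frontal cortex, and 10.3% in KO and 8.80% in WT E14 cortex, where it stood below Syn3. In the P30 amygdala Syn2 had 22.0% in KO and 19.4% in WT libraries. These shares depend on the length used. The exon union was 12282 bases for Syn3 and 7031 for Syn2, against longest transcripts of 4775 and 3854. For Syn1 the 2 lengths were 3299 and 3261. Over the longest transcript Syn2 and Syn3 would thus hold larger shares and Syn1 a smaller one.

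**Figure D5:**
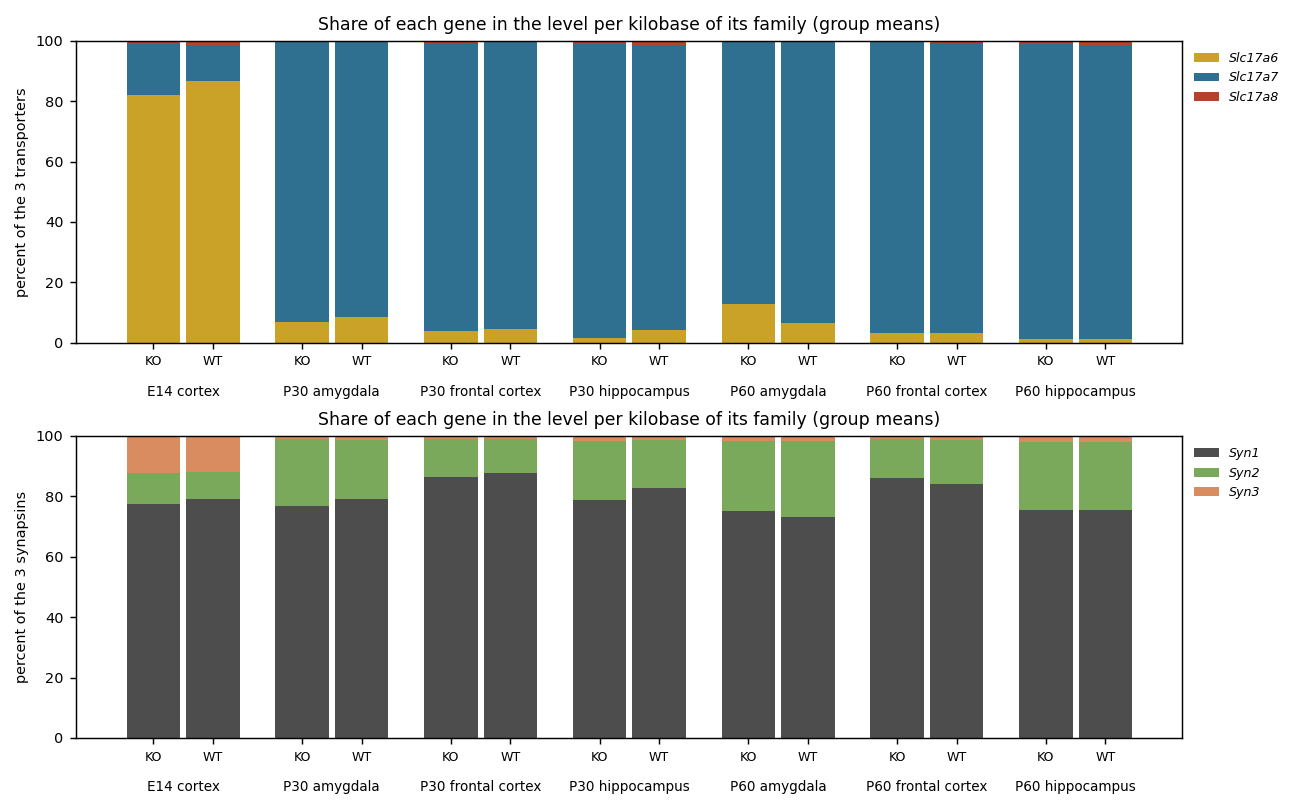
Share of each gene in the summed level per kilobase of exon union of its family, as group means in percent: transporters above, synapsins below, KO left of WT in each setting. Slc17a6 makes up 82.1% of the transporters in KO and 86.8% in WT E14 cortex, and Slc17a7 at least 86.9% in every later group.

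Most vesicle, release and proton pump genes had the direction of Syn1 and Syn2, and the other vesicular transporters did not share one. Of 20 synaptic vesicle proteins, 19 in KO and 18 in WT were at least 2-fold higher in P30 frontal cortex than in E14 cortex and 0 were as much lower, with medians of 2.74 and 2.83 on the log2 scale beside -0.04 and -0.06 over all genes. Of 15 release genes 14, and of 10 proton pump genes 8, were at least 2-fold higher in both genotypes. Of 7 other vesicular transporters 2 were at least 2-fold higher and 2 as much lower in both genotypes (medians 0.43 in KO and 0.63 in WT). Of 11 genes of glutamate supply and uptake 8 were higher and 1 lower in both (medians 1.62 and 1.61), and of 17 synapsin kinases and phosphatases 8 in KO and 9 in WT were higher and 0 lower (medians 0.97 and 0.98). Rest, which encodes the repressor REST of neuronal genes, averaged 10.6 at P30 and 36.9 at E14 in KO, and 9.06 and 37.4 in WT, 3.498-fold and 4.13-fold lower at P30. Its corepressor gene Rcor2 was 12.1-fold lower in KO and 11.5-fold lower in WT, Sin3a 2.53-fold and 2.60-fold lower and Rcor1 1.81-fold and 1.77-fold lower. The 8 cortical progenitor genes, all with reads in every age, were also at least 2-fold lower in both genotypes, and all 8 oligodendrocyte genes at least 2-fold higher, so the make-up of the tissue moved with each of these values, and its part was not tested.

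Between P60 and P30 the levels of Syn1, Syn2 and Slc17a7 differed by far less than between P30 and E14. Syn1 was at 0.757 and 0.853 of its P30 level in KO and WT amygdala, 0.880 and 0.858 in frontal cortex and 0.737 and 0.80 in hippocampus. Slc17a7 was at 0.724 of its P30 level in KO amygdala, where P60 libraries ran from 318.3 to 475.6 and P30 libraries from 504.3 to 660.2, and at 1.13 in WT amygdala, with overlap. Syn2 was at 0.826, 0.917 and 0.881 of its P30 level in KO amygdala, frontal cortex and hippocampus, and at 1.18, 1.17 and 1.24 in WT. The Syn2 differences of P60 minus P30 lay above those of 7.79%, 25.0% and 24.0% of genes in KO and of 88.4%, 86.7% and 87.6% in WT, in the same order of regions, and whether the genotypes differ in this was not tested. Without WT P30 number 3 of a region, Syn2 was at 1.09 in WT amygdala and 1.16 in WT hippocampus. Slc17a6 was lowest against its P30 level in WT hippocampus, which averaged 8.11 at P60 and 19.6 at P30, with the 2 high P30 libraries being those with high thalamus sums. In KO hippocampus it was at 0.707 of its P30 level, and at 0.267 without P60 number 1. Markers of other cells moved between the same groups. The oligodendrocytes list had median log2 differences, P60 minus P30, of -0.07 in KO and -0.93 in WT amygdala, -1.12 and -0.82 in frontal cortex and -0.85 and -1.97 in hippocampus. The choroid plexus list had 1.07 in KO and -1.51 in WT amygdala, -0.90 and -0.83 in frontal cortex and -0.75 and -2.73 in hippocampus. The WT P30 libraries numbered 3 hold the high sums given above, and the part of these cells in the P60 to P30 ratios was not tested.

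The genes within and beside the synapsins were read as a check of overlap. Timp3 shares 1733 exon bases with a retained-intron transcript of Syn3 on the opposite strand, Timp4 shares 90 bases with coding transcripts of Syn2, Araf 9 bases with Syn1, and Timp1 none with Syn1. The libraries keep strand, but the sources used here do not state whether counting used it, so reads in these shared bases may be split between the partners. None of the 3 Timp genes was called between KO and WT in any setting. Timp4 was higher in amygdala than in frontal cortex by 0.67 at P30 and 0.70 at P60 (log2; limma adjusted p = 3.29e-05 and 3.79e-07), close to the 0.73 and 0.68 of Syn2, and Timp3 by 0.35 at P30 (0.0194), beside 0.32 for Syn3. Between E14 cortex and P30 frontal cortex Timp3 was 2.20-fold higher at P30 in KO and 2.22-fold in WT, while Syn3 was lower. The other genes inside the members, Mir5617, Gm15029, Gm18325, Gm17482, 4930486F22Rik, Gm15990, Gm45072 and Mir7055, share no exon base with them.

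Across the libraries after birth the 6 genes did not move as one. The mean of the 2 Pearson correlations of log2(value + 1), over 24 P30 and 19 P60 libraries, was 0.64 between Syn1 and Slc17a7, 0.43 between Syn2 and Syn3, -0.35 between Syn1 and Syn2 and -0.68 between Slc17a6 and Slc17a8. The genes most like each member among 14362 compared were Clip3 (0.90), Spock1 (0.87) and Rab6b (0.84) for Syn1, and Nisch (0.92), Pcdh19 (0.92) and Ptbp2 (0.92) for Syn2. For Syn3 they were Fbxo7 (0.84), Amer3 (0.77) and Lrrtm4 (0.77). For Slc17a7 they were Madd (0.86), Dlgap2 (0.85) and Unc13a (0.80), the last a priming factor of vesicles. For Slc17a6 they were Vwc2, Hcn4 and Slc8a3 (0.89, 0.88 and 0.88), and for Slc17a8 Sertad4, Rasgrp1 and Fndc5 (each 0.90). These are descriptions over libraries that fall into the same 3 regions, and the part of the regions in each correlation was not tested.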

How the data were processed

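Poly-A RNA of 52 libraries was sequenced as stranded paired-end reads, per the labels' protocols. The submitters' processing notes name mm9, limma, DESeq and edgeR without a role; the sources used here give neither the aligner nor how reads were counted or strand was used. The deposited values are reads per gene scaled by the authors to a near common total (column sums 945861 to 1039135), called CPM here; division by the smallest step gave whole reads within 0.1 for 100.0% of values, 2933026 to 9469235 per library. The 6 members were read by symbol in 3 tables, and 48058 of 48526 gene IDs matched the GENCODE M21 annotation. The design text gives P6 and sensory cortex where the labels give P60 and frontal cortex; the labels were followed. Every sample is labelled mouse brain, yet its growth protocol is that of cultured human neural stem cells; that text was not used.

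A gene was tested where at least n libraries held the value of 10 reads of a median library (n being the size of the smallest group) and the table held 15 reads of it: 18350 at E14, 18976 at P30 and 19239 at P60. limma 3.58.1 (R 4.3.3; trend, robust) was fitted to log2(value + 1) with all groups of a table in 1 fit, with Benjamini-Hochberg adjustment and a threshold of 0.05. A fold change on that scale understates the change of low genes. Ages were compared on recovered reads with joint TMM factors, without a test. The fit was tested on simulated data. The members and gene lists were chosen with earlier results of these data known. Named besides the members are genes overlapping them, the 3 genes most like each, REST and its cofactors, and up to 3 called genes of a list in each direction. Xist and Y-linked genes gave the sex of each library. Numbers shared by KO and WT were checked for pairing: same-numbered libraries were correlated in how they deviate from their group means. In the P60 amygdala all 3 correlations were over 0.1 (0.265, 0.21 and 0.321), so a pairing by number is possible there. The replicate block left the members' calls at 0 and gave 7 genes called in place of 4. It gave -0.48 for Slc17a7 (limma adjusted p = 0.728), against -0.46 in the main fit. The P60 amygdala values given above are of the main fit, which holds no pairs. The labels do not state pairs, and same-numbered KO and WT libraries there were of the same sex. Alternatives were another pseudocount, no filter, TMM, voom, a sex term, a replicate block, each library left out, and each genotype alone. Chi-square per gene between replicates was 2.54 to 28.7 over 74 pairs, so no 2 libraries were counted as 1. The 43 libraries after birth and the 9 at E14 come from separately normalised tables. Figures were drawn with matplotlib 3.10.9.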

Additional observations from a re-analysis of the deposited data

Results flagged for a closer look

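In 4 of 60 groups of 4 or 5 libraries with a member's values, 1 library stood apart by Dixon's test at its 95% critical value, where chance gives about 1 in 20 groups. Syn1 was at 951.15 in KO P30 hippocampus number 4, and at 712.75 to 738.84 in the other 3. Syn2 was at 308.62 in WT P30 amygdala number 3, the library with the high oligodendrocyte sum, and at 441.23 to 452.51 in the other 3. Slc17a8 was at 8.21 in WT P30 hippocampus number 1, and at 6.2 to 6.54 in the other 3. Slc17a8 was at 1.93 in KO P60 frontal cortex number 1, and at 3.18 to 3.43 in the other 3, from few reads.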

How the results depend on the processing

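Over 628 alternatives of the KO to WT differences of the members, 0 passed the limma test; 583 had the direction reported and 45 the opposite one. Over 870 alternatives of the region differences, 803 gave the same call and direction, 42 lost a call, 13 gained one and 12 turned direction. The 57 reversed values lay between -0.08 and 0.49 with adjusted p of at least 0.288. edgeR and DESeq2, planned as alternatives, were not run, because the deposited values are not counts; voom on recovered reads took their place, chosen after seeing the data, as were the fits without KO numbers 4 and 5 of E14, without WT number 3 of P30 and without number 1 of P60 hippocampus, and the P60 to P30 ratios without single libraries.

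In WT libraries alone 3 members were called for P30 hippocampus minus frontal cortex, 2 for P60 hippocampus minus frontal cortex and 2 for P60 amygdala minus frontal cortex. In KO libraries alone 2 were called for P30 amygdala minus frontal cortex and 2 for P60 hippocampus minus frontal cortex. Without 1 library, P60 hippocampus minus frontal cortex gave 2 to 5 members, the fewest without KO hippocampus number 2. Reversed log2 values in WT alone were 0.209 for Syn3 (P30 amygdala minus hippocampus) and 0.151 for Slc17a7 (P60 amygdala minus hippocampus). With a sex term the KO minus WT value was -0.001 for Syn1 at E14, -0.062 for Syn3 in P30 frontal cortex, 0.015 for Syn1 in P30 hippocampus and 0.029 for Slc17a6 in P60 frontal cortex. Syn1 in P30 hippocampus was 0.005 with TMM and 0.006 with voom. With the replicate block (paired by number) it was -0.021 for Syn1 at E14, 0.118 for Slc17a8 in P60 amygdala, 0.265 for Slc17a6 and 0.008 for Slc17a7 in P60 frontal cortex, and 0.021 for Syn1 and 0.069 for Slc17a7 in P60 hippocampus; the replicate block changed no call of a member. Same-numbered libraries correlated at 0.624 and 0.497 in P60 hippocampus, where 2 pairs are fewer than the 3 needed to read a pairing and both libraries numbered 1 stand apart. Elsewhere outside the P60 amygdala at least 1 pair was at 0.1 or below, so the samples share only a number: -0.399 to 0.256 at E14, -0.214 to 0.18 in P30 amygdala, -0.156 to 0.068 in P30 frontal cortex, -0.01 to 0.1 in P30 hippocampus and 0.031 to 0.224 in P60 frontal cortex. Without WT number 3 Syn3 was at -0.051 in P30 frontal cortex, and Slc17a7 at -0.041 for P30 amygdala minus hippocampus. Without KO numbers 4 and 5, Syn1 was at -0.083 and Syn3 at -0.077 at E14. Without number 1 of both groups Syn3 was at 0.261 in P60 hippocampus.

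Leaving out 1 library in turn, KO minus WT ran as follows. Syn1 ran from -0.021 to 0.186 at E14, -0.083 to 0.013 in P30 frontal cortex, -0.154 to 0.088 in P30 hippocampus, -0.073 to 0.029 in P60 amygdala, -0.053 to 0.106 in P60 frontal cortex and -0.259 to 0.021 in P60 hippocampus. Syn3 ran from -0.051 to 0.176 in P30 frontal cortex and -0.585 to 0.494 in P60 hippocampus. Slc17a6 ran from -0.441 to 0.12 in P30 amygdala, -0.009 to 0.692 in P60 amygdala, -0.269 to 0.265 in P60 frontal cortex and -1.264 to 0.477 in P60 hippocampus. Slc17a7 ran from -0.025 to 0.07 in P30 frontal cortex, -0.107 to 0.008 in P60 frontal cortex and -0.211 to 0.099 in P60 hippocampus. Slc17a8 ran from -0.379 to 0.188 in P60 amygdala. For amygdala minus hippocampus, Syn3 ran from -0.071 to 0.054 at P30 and -0.431 to 0.108 at P60, and Slc17a7 from -0.14 to 0.015 at P60.

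With CPM of the library total in place of joint TMM, P30 minus E14 on the log2 scale was 2.98 for Syn2 and 4.859 for Slc17a7 in KO, and 2.97 for Syn1, 3.14 for Syn2, -1.996 for Slc17a6 and 5.207 for Slc17a7 in WT. Over the longest transcript, WT P30 frontal cortex levels were 69.11 for Syn2, 8.607 for Syn3, 7.004 for Slc17a6 and 204.1 for Slc17a7. With Spearman's correlation the 3 genes most like a member changed for 4 of 6 members. Over all genes the KO to WT calls ranged from 3 to 13 at E14, 4 to 25 in P30 amygdala, 2 to 5 in P30 frontal cortex, 2 to 265 in P30 hippocampus (the most without WT number 1), 3 to 7 in P60 amygdala, 3 to 7 in P60 frontal cortex and 0 to 5 in P60 hippocampus. Region calls ranged from 5593 to 8574, 4190 to 7854 and 5740 to 8878 genes at P30 and from 3391 to 6708, 1846 to 6613 and 2622 to 5999 at P60, the order being hippocampus minus frontal cortex, amygdala minus frontal cortex and amygdala minus hippocampus. The interaction called 0 to 14 genes at P30, the most without WT hippocampus number 1, and 0 to 1 at P60. Slc17a8 is limited by its few reads, and the P60 hippocampus by 2 KO libraries.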
